A study of Homo sapiens with 12 samples.

Results

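The SLC16 family consists of membrane carriers for monocarboxylates and related small molecules, and basigin (BSG, also CD147) is the glycoprotein that escorts some of them to the cell surface. The genes described here were 8 SLC16 genes and BSG, 9 of the 34318 genes with a matched transcript in the deposited table. They were chosen by name, but with measured values in view: SLC16A1 was taken up because it fell after an siRNA against POLR3A, and SLC16A9 and SLC16A14 because they rose with ML60218. Those 3 changes are therefore given as values without a test. Adjusted p-values are given only for the other genes and comparisons.

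The founding members of the family, SLC16A1 (MCT1), SLC16A7 (MCT2), SLC16A8 (MCT3) and SLC16A3 (MCT4), move lactate, pyruvate or ketone bodies together with a proton. Other members carry different cargo: SLC16A10 aromatic amino acids, SLC16A9 carnitine and SLC16A12 creatine. MCT1 and MCT4 need basigin to reach the plasma membrane, and MCT2 is mostly escorted by embigin (EMB). In proliferating cells that run glycolysis at a high rate, MCT1 and MCT4 are the usual routes for lactate.

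All libraries came from HEK293T, an established, easily transfected human embryonic kidney line, used between passages 10 and 25. The labels name 4 groups of 3 libraries. Control siRNA (siControl) and POLR3A siRNA (siPOLR3A) were delivered with Lipofectamine RNAiMAX, and those cells were taken after 2 days. The vehicle DMSO at 0.1% and ML60218 at 25 µM, an inhibitor of RNA polymerase III, acted for 4 hours. POLR3A encodes the largest subunit of that polymerase, which makes transfer RNAs and other short RNAs. The labels do not say that replicates were separate cultures, so p-values measure the spread between these libraries, which may be technical.

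The libraries held between 37008325 and 49479476 estimated reads. POLR3A was at 15.4 ± 0.697 TPM (transcript abundance per length on a fixed total; SD, n = 3) in siControl and 3.38 ± 0.473 in siPOLR3A, and its read count fell by 2.36 on the log2 scale (edgeR adjusted p = 1.94e-05). Against DMSO, POLR3A fell by 0.38 with ML60218 (edgeR adjusted p = 0.000229). The labels call the cells epithelial and give kidney as the tissue. KRT8, KRT18, EPCAM and CDH1 summed to between 34.2 and 45.2 TPM, VIM and CDH2 to between 309 and 501 TPM, and all 6 of the adult kidney markers looked at were under 1 TPM in every library. The mesenchymal sum was 422 to 440 TPM in siControl and 309 to 319 TPM in siPOLR3A, and 401 to 432 TPM in DMSO and 450 to 501 TPM with ML60218. The epithelial sum was 34.2 to 36.3 TPM in siControl and 38.3 to 41.1 TPM in siPOLR3A. It was 39.2 to 40.8 TPM in DMSO and 42.8 to 45.2 TPM with ML60218. In TPM the median of all genes also lay 0.117 higher with ML60218 on the log2 scale. The epithelial genes did not all move alike. After siPOLR3A KRT8 went from 4.51 to 3.08 TPM, with overlap, while KRT18, EPCAM and CDH1 were higher. With ML60218 KRT8 and KRT18 were higher, but EPCAM went from 1.60 to 1.57 TPM and CDH1 from 1.56 to 1.54. The part of these shifts in the results below was not tested. In bulk RNA, fewer expressing cells and less RNA per cell cannot be told apart.

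Sequence differences among the genes are shown first because the 3′ untranslated regions (UTRs) and promoters differ in features that earlier work on these libraries had taken up. Short sites in a 3′ UTR are where the seed of a small RNA can pair with a transcript. The 6 bases GAGGGA had been picked from these same libraries, so their presence is a description and no independent evidence. SLC16A1 held 3 copies in the 3′ UTR of its most-read coding transcript, SLC16A6 and SLC16A14 held 1 copy each, and SLC16A7, SLC16A3, SLC16A9, SLC16A10, SLC16A13 and BSG held 0. The sites of SLC16A1 and SLC16A14 are given with 9 bases on either side, the 6 bases in capitals, from GENCODE release 29 transcripts on GRCh38, and all 4 are on the minus strand:
SLC16A1, chr1:112913697-112913720: gaatttgagGAGGGAatgattggt
SLC16A1, chr1:112912538-112912561: aaggataagGAGGGAaggtggacc
SLC16A1, chr1:112911892-112911915: actgttggtGAGGGAataaggaat
SLC16A14, chr2:230036795-230036818: tatttttatGAGGGAattctgcag

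Promoter windows of 250 bases before to 50 after a start (RefSeq, GRCh38.p14) were found for SLC16A3, SLC16A7, SLC16A9, SLC16A10, SLC16A14 and BSG, 13 windows in all. Motifs, spelled out below, were searched on both strands. The E-box CACGTG, bound by MYC and MondoA family factors, was in 1 window of SLC16A9 and 1 of BSG, against 7.26% of all 35116 windows. SLC16A9 is shown because it was higher in both experiments, though its rise with ML60218 also served to choose it. The part of the E-box in the changes of SLC16A9 was not tested. The stretch is the 100 bases before one of its starts, on the minus strand, with no annotated exon over it, and the E-box is in capitals 47 bases before the start:
SLC16A9, chr10:59710080-59710179: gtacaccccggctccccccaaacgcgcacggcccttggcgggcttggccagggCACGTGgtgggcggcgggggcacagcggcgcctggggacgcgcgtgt
The core of the hypoxia response element, ACGTG, which also lies inside the E-box, was in windows of SLC16A3, SLC16A9, SLC16A10 and BSG (21.4% of all windows hold it). TGATGNAA, the composite element of ATF4 and C/EBP (3.62% of windows), and TGACGTCA, the cyclic AMP response element (1.85%), were in none of the 13 windows.

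TPM, which divides by transcript length, allows the genes to be ranked within a group. In siControl BSG stood first at 297 ± 9.19 TPM (SD, n = 3) and SLC16A1 second at 160.4 ± 3.396 TPM. SLC16A10 followed at 25.1 TPM, then SLC16A13 at 9.50, SLC16A9 at 8.60, SLC16A14 at 7.66, SLC16A7 at 5.62, SLC16A6 at 3.61 and SLC16A3 at 0.826. The places of SLC16A10 and SLC16A14 rest in part on fragments of 646 bases with incomplete coding sequences. These carried 51.2% and 39.4% of the gene's TPM but 5.02% and 5.24% of its reads. The full-length transcripts were at 7.78 TPM for SLC16A10 and 4.49 TPM for SLC16A14, below the main transcripts of SLC16A9 (8.50) and SLC16A7 (5.32) respectively. The libraries of SLC16A13 and SLC16A9 overlapped, as did those of SLC16A9 and SLC16A14, and the other neighbours in the order did not. SLC16A1 was thus the main proton-linked carrier at the mRNA level: it gave 95.9% ± 0.354 (SD, n = 3) of the summed TPM of SLC16A1, SLC16A3, SLC16A7 and SLC16A8 in siControl and 97.3% ± 0.289 in DMSO.

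**Figure D1:**
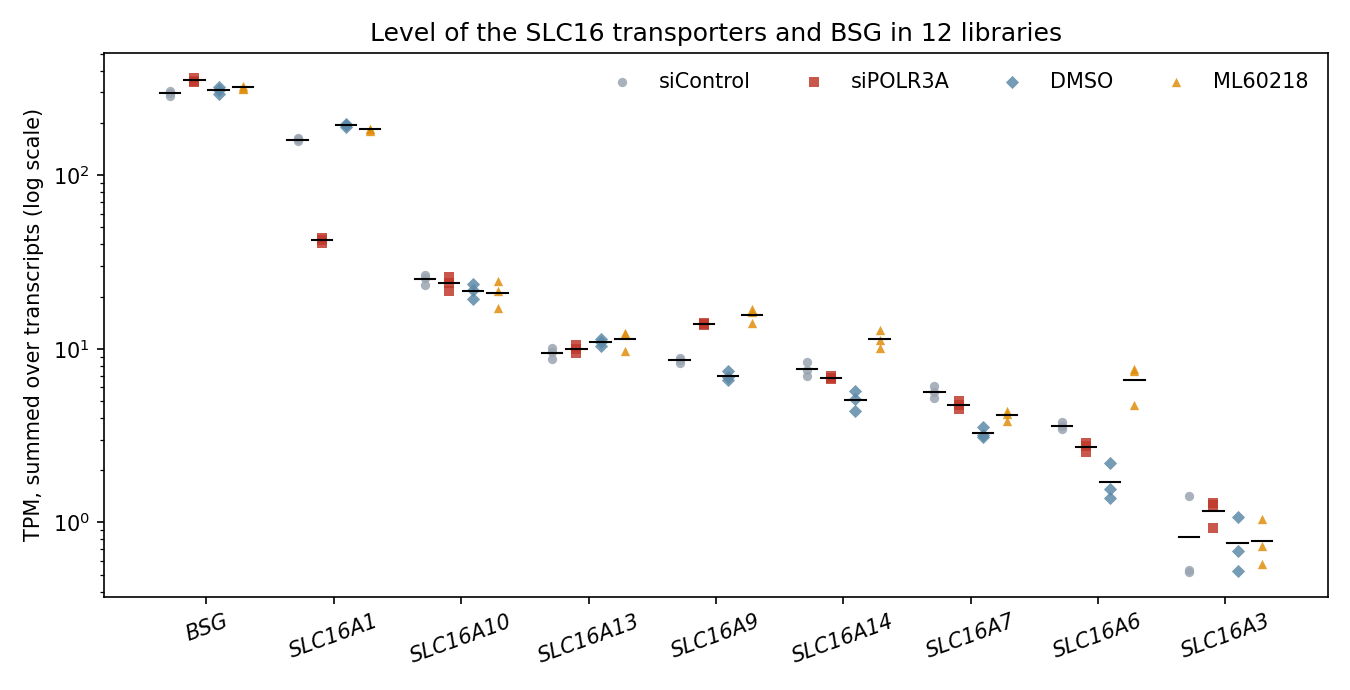
TPM of each gene (log axis) in all 12 libraries, by group; points are libraries and black lines the mean of 3. BSG and SLC16A1 lie above the rest in every group. After siPOLR3A SLC16A1 was at 42.2 TPM, against 160 in siControl, and SLC16A10 came next at 23.8 TPM.

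The order changed at a few places with treatment. After siPOLR3A SLC16A1 was still second, at 42.2 ± 1.35 TPM (SD, n = 3), and SLC16A9 at 13.9 TPM stood above SLC16A13 at 10.0 with no overlap. In DMSO SLC16A6 was at 1.72 TPM and below SLC16A7 at 3.29. With ML60218 SLC16A6 was at 6.60 TPM and above SLC16A7 at 4.15, and SLC16A14 at 11.4 TPM overlapped with SLC16A13 at 11.4.

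SLC16A1 (ENSG00000155380, chr1:112911847-112957013, minus strand) encodes MCT1, the broadly expressed carrier of lactate, pyruvate and ketone bodies. Levels within a comparison are given as CPM, reads per gene relative to the library's TMM-scaled size. In siControl SLC16A1 was at 440.3, 458.6 and 460.5 CPM, and after siPOLR3A at 121.9, 119.7 and 112.3 CPM. The 3 depleted libraries lay close together and well below the controls, a fall of 1.94 on the log2 scale (SE 0.0316), or 3.84-fold. This is the change for which the gene was taken up, so it carries no test. Of all genes tested, 1.94% were called lower by at least 2-fold in that comparison, and SLC16A1 was the only one of the 9 past that size. It was measured on 3856 to 24036 reads per library.

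With ML60218 SLC16A1 changed far less. It was at 544.1, 543.6 and 543.0 CPM in DMSO and at 488.4, 470.6 and 454.0 CPM with the inhibitor, so the groups did not overlap. The log2 change was -0.21 (SE 0.0336, edgeR adjusted p = 0.00136). On the TPM scale, where the median of all genes lay 0.117 higher with ML60218, the change was -0.08 and was not called, which is -0.195 relative to that median.

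Nearly all SLC16A1 reads belonged to transcript ENST00000369626, which carried 96.2% of the gene's TPM in siControl. It was at 156, 151 and 156 TPM in siControl and at 39.4, 37.8 and 35.6 TPM after siPOLR3A. ENST00000429288, whose annotated coding sequence is incomplete, was at 5.06, 4.44 and 6.17 TPM and at 3.82, 4.62 and 4.90 TPM, and these groups overlapped. Its share of the gene's TPM was 3.25% in siControl and 10.6% after siPOLR3A.

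At least 3 copies of GAGGGA were found in 6.80% of the 13816 genes with a 3′ UTR of at least 50 bases. Among those genes the median log2 change after siPOLR3A was -0.09, and 5.22% were at -1 or below, where SLC16A1 also lay. Genes with 0 copies had a median of 0.02 and 1.23% of them were at -1 or below, but their 3′ UTRs were also shorter, with a median of 732 against 4104 bases. Among the 277 genes called lower by at least 2-fold, 68.95% held a copy, against 32.59% of the genes not called and 34.87% of those called higher by at least 2-fold. GAGGGA had been picked from these same libraries, so this contrast is no independent evidence. The median 3′ UTR lengths of those groups also differed, at 1396, 979.5 and 963 bases. Of the 4048 genes called lower by less than 2-fold, 42.19% held a copy, at a median length of 1358 bases. Of the 3665 called higher by less than 2-fold, 31.43% did, at 1120 bases. The part of 3′ UTR length in these shares was not tested. SLC16A6 and SLC16A14, with 1 copy each, had log2 changes of -0.24 and -0.12, and SLC16A7 and SLC16A10, counted at 0 copies, had -0.23 and -0.25. The part of these sites in the fall of SLC16A1 was not tested. In release 29 the models of SLC16A7 and SLC16A10 end earlier than the transcripts in the deposited table (1969 against 11936 bases and 2508 against 10757), so the counts of 0 there cover only part of the 3′ UTR. The models of SLC16A6 (2659 against 3691 bases) and SLC16A13 (1748 against 1804) are also shorter, so their counts may be incomplete.

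**Figure D2:**
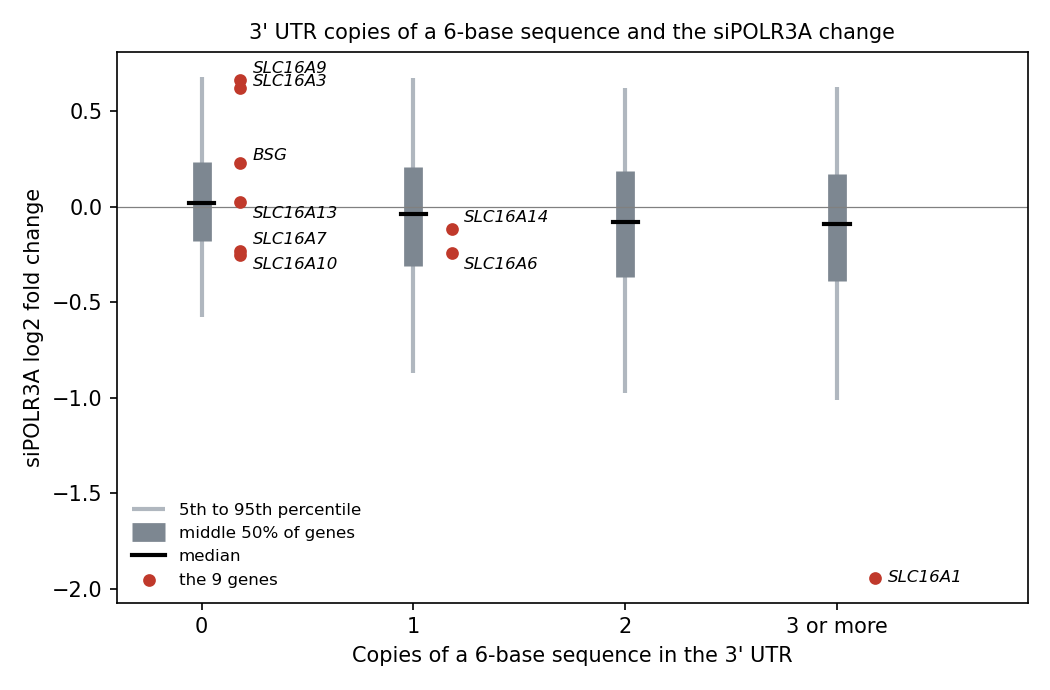
log2 fold change of siPOLR3A against siControl (vertical axis) by the number of copies of a 6-base sequence in the 3′ UTR (horizontal axis). Grey bars give the spread of the 13816 genes at each number of copies and red points the 9 genes: SLC16A1, at -1.94, lies below the 5th percentile of genes with 3 or more copies (-1.01). The counts of SLC16A6, SLC16A7, SLC16A10 and SLC16A13 come from models shorter than the deposited transcripts.

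BSG (ENSG00000172270, chr19:571277-583493, plus strand) rose after siPOLR3A while its client SLC16A1 was lower. It was at 299.8, 306.5 and 314.6 CPM in siControl and at 369.7, 351.8 and 356.2 CPM after siPOLR3A, with no overlap, a log2 change of 0.23 (SE 0.0262, edgeR adjusted p = 4.76e-06). The ratio of BSG to SLC16A1 in TPM was 1.85 ± 0.0215 in siControl and 8.36 ± 0.227 in siPOLR3A (SD, n = 3). With ML60218 it was 1.75 ± 0.0280 against 1.60 ± 0.0296 in DMSO. The siPOLR3A difference in this ratio mostly repeats the fall for which SLC16A1 was chosen. BSG alone was at 297 TPM in siControl and 353 TPM after siPOLR3A. The full-length coding transcript ENST00000353555 carried 95.5% of the TPM of the matched BSG transcripts in DMSO. A BSG transcript of 1630 bases that release 29 does not list, and that was left out of the gene's sum, was at 53.7 TPM in siControl and 52.4 TPM after siPOLR3A. With such unmatched transcripts counted, the share of ENST00000353555 in DMSO was 81.5% ± 0.587 (SD, n = 3).

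With ML60218 BSG went from 318.5, 308.2 and 304.2 CPM to 297.6, 292.2 and 275.5 CPM, a log2 change of -0.11 (SE 0.0367, edgeR adjusted p = 0.0437). The groups did not overlap, but the call was lost without DMSO replicate 1, 2 or 3 (adjusted p = 0.171, 0.107 and 0.0709) and without ML60218 replicate 2 or 3 (0.067 and 0.0723). In TPM its change was 0.05 and not called.

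SLC16A3 and SLC16A7 encode MCT4, a carrier of lactate out of glycolytic cells, and MCT2, which has a high affinity for pyruvate and lactate. SLC16A3 was nearly absent, on 34.1 to 62.4 reads per library. It was at 1.02, 1.14 and 0.985 CPM in siControl and at 1.42, 1.62 and 1.81 CPM after siPOLR3A, a rise of 0.62 on the log2 scale (SE 0.183, edgeR adjusted p = 0.00987), which DESeq2 did not call (adjusted p = 0.0825). In TPM the groups overlapped, at 1.42, 0.520 and 0.536 in siControl and 0.926, 1.27 and 1.29 after siPOLR3A, still the lowest level of the 9. With ML60218 its value was -0.09 (SE 0.200, edgeR adjusted p = 0.768).

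SLC16A7 fell after siPOLR3A, from 44.4, 39.6 and 42.0 CPM to 33.74, 37.02 and 36.44 CPM, a log2 change of -0.23 (SE 0.0489, edgeR adjusted p = 0.00107). On the TPM scale it was -0.20 and not called (limma adjusted p = 0.0674). With ML60218 the CPM went from 27.11, 23.88 and 24.04 to 29.03, 26.91 and 28.75. These groups overlapped: DMSO replicate 1 lay above ML60218 replicate 2. The log2 change was 0.18 (SE 0.0622, edgeR adjusted p = 0.0474), and the call was lost without DMSO replicate 2 or 3 (adjusted p = 0.182 and 0.164) and without ML60218 replicate 1, 2 or 3 (0.0933, 0.0511 and 0.102). The summed TPM of SLC16A1, SLC16A3, SLC16A7 and SLC16A8 was 167 ± 3.92 in siControl and 49.3 ± 1.40 in siPOLR3A (SD, n = 3). SLC16A1, chosen for its fall, made up 95.9% and 85.6% of these sums, so their difference mostly repeats that choice. SLC16A3, SLC16A7 and SLC16A8 were at 0.826, 5.62 and 0.495 TPM in siControl and at 1.16, 4.75 and 1.19 TPM after siPOLR3A.

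SLC16A6 (ENSG00000108932, chr17:68267026-68291267, minus strand) encodes MCT7, which has been linked to the export of ketone bodies from liver. It had the largest log2 change of the 9 with ML60218. In DMSO it was at 4.79, 3.51 and 3.88 CPM, and with ML60218 at 11.8, 14.4 and 15.4 CPM. Every treated library was more than 2-fold above every control, and the log2 change was 1.78 (SE 0.137, edgeR adjusted p = 0.000108). Of all genes tested, 1.14% were called higher by at least 2-fold in that comparison. SLC16A6 kept its call in all 19 alternative analyses, with values between 1.47 and 1.91.

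The main coding transcript, ENST00000580666, was at 1.39, 1.29 and 1.27 TPM in DMSO and 4.02, 4.91 and 5.78 TPM with ML60218. SLC16A6P1, a pseudogene of SLC16A6 whose reads may be shared with it, also rose with ML60218, by 0.91 (SE 0.220, edgeR adjusted p = 0.00949), from 0.948 to 1.77 CPM. After siPOLR3A SLC16A6 went the other way, from 8.47, 7.62 and 8.89 CPM to 7.19, 7.11 and 6.79 CPM, a log2 change of -0.24 (SE 0.0833, edgeR adjusted p = 0.0226). That small fall was not stable: SLC16A6P1 rose by 0.54, the value with its reads added was -0.07 (adjusted p = 0.451), and the call was also lost without siControl replicate 1 or 3 (adjusted p = 0.069 and 0.108) or siPOLR3A replicate 3 (0.0706).

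SLC16A9 (ENSG00000165449, chr10:59650761-59736002, minus strand) encodes MCT9, a carnitine carrier. With ML60218, the comparison for which it was taken up, it went from 17.8, 18.4 and 18.1 CPM to 34.5, 39.1 and 39.0 CPM. The treated libraries were all about 2-fold above the controls, a log2 change of 1.05 (SE 0.0598). After siPOLR3A, which played no part in its choice, it went from 22.7, 24.5 and 22.1 CPM to 36.6, 36.8 and 36.5 CPM. That rise of 0.66 on the log2 scale (SE 0.0475, edgeR adjusted p = 3.41e-08) kept its call in all 19 alternatives. SLC16A9 was the only one of the 9 that was higher in both experiments by more than 0.5 on the log2 scale. Transcript ENST00000395348 carried 98.8% of the gene's TPM in siControl.

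SLC16A14 (ENSG00000163053, chr2:230034974-230068999, minus strand) encodes MCT14, whose cargo is little studied. It went from 10.2, 10.8 and 10.8 CPM in DMSO to 22.6, 23.5 and 26.4 CPM with ML60218, a log2 change of 1.19 (SE 0.0716) that served to choose it. The full-length transcript ENST00000295190 went from 3.33, 3.43 and 3.22 TPM to 7.54, 8.10 and 9.82 TPM. After siPOLR3A SLC16A14 was at 14.8, 12.9 and 13.2 CPM against 13.3, 14.8 and 16.2 CPM, with overlap, and its value of -0.12 (SE 0.0771) was not called (edgeR adjusted p = 0.214).

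**Figure D3:**
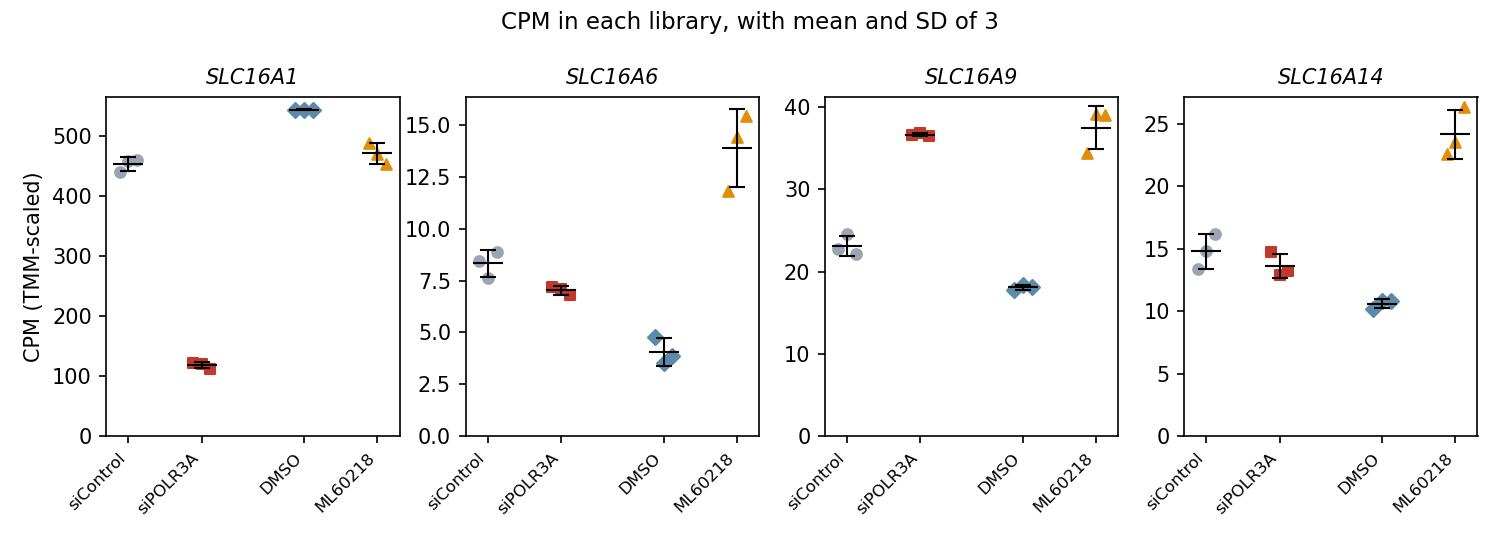
CPM (linear axes from 0) of SLC16A1, SLC16A6, SLC16A9 and SLC16A14 in each library of the 4 groups, with the mean and SD of 3; the experiments were scaled separately. SLC16A1 was low only in siPOLR3A, SLC16A6 and SLC16A14 were high with ML60218 relative to DMSO, and SLC16A9 was high in both treated groups.

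SLC16A10 encodes TAT1, a carrier of tryptophan, tyrosine and phenylalanine. It fell after siPOLR3A from 67.9, 67.1 and 65.9 CPM to 55.0, 57.6 and 56.1 CPM, a log2 change of -0.25 (SE 0.0316, edgeR adjusted p = 1.05e-05). The groups did not overlap in CPM. In TPM they overlapped, and the change was -0.08 and not called (limma adjusted p = 0.428), nor was it called with an offset for isoform length (-0.10). The gene's TPM rested mainly on ENST00000439288, a fragment of 646 bases with an incomplete coding sequence, which carried 51.2% of its TPM in siControl but 5.02% of its reads. The full-length ENST00000368851 was at 8.16, 7.46 and 7.71 TPM in siControl and at 6.41, 6.69 and 6.78 TPM after siPOLR3A, with no overlap. With ML60218 the CPM value was -0.09 (SE 0.0520, edgeR adjusted p = 0.184), and it was called without ML60218 replicate 1 (-0.14, adjusted p = 0.0467).

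SLC16A13 encodes MCT13, a carrier near which variants linked to type 2 diabetes lie. It differed least. It was at 7.96, 7.48 and 7.80 CPM in siControl, 7.58, 8.30 and 7.78 CPM in siPOLR3A, 8.26, 8.69 and 8.27 CPM in DMSO and 8.96, 9.01 and 6.99 CPM with ML60218. The groups overlapped in both comparisons, and the values were 0.03 (SE 0.0774, edgeR adjusted p = 0.797) and -0.02 (SE 0.105, edgeR adjusted p = 0.909).

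**Figure D4:**
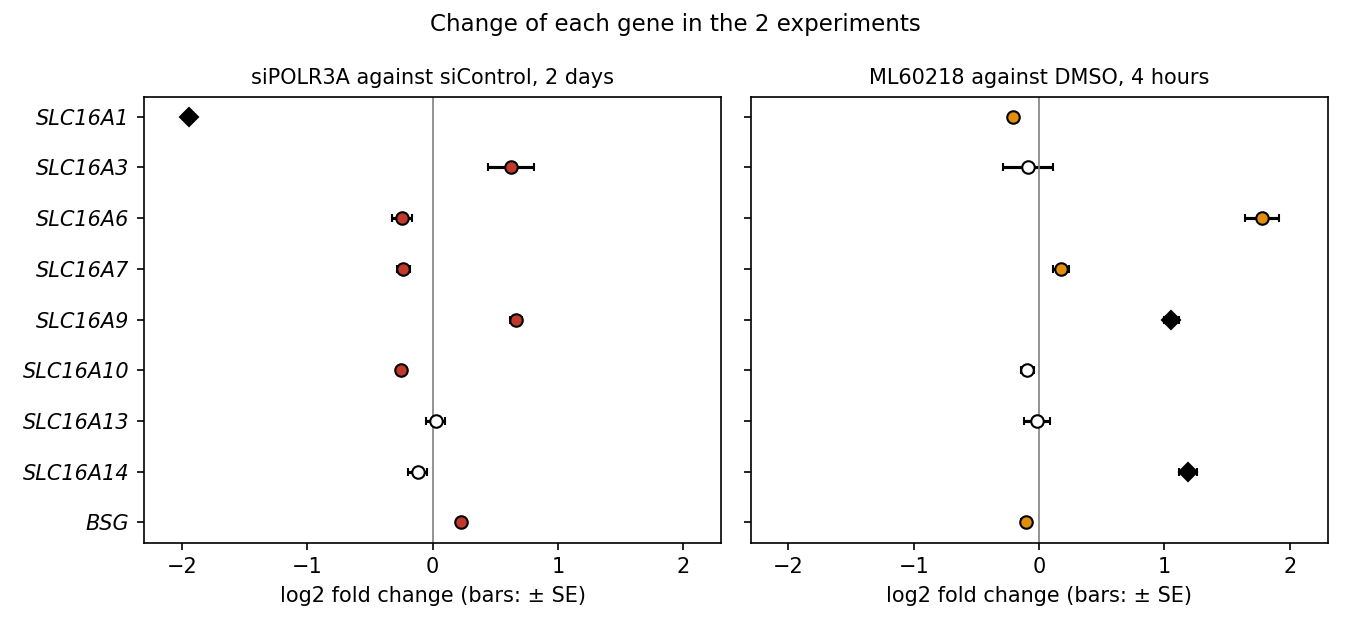
log2 fold change ± SE of the 9 genes in each comparison. Filled circles were called at an adjusted p under 0.05, open circles were not, and black diamonds are the 3 changes that served to choose the genes and were not tested.

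Many genes moved in these libraries, so the counts have to be read against the background. After siPOLR3A 56.6% of the genes tested passed the test, 27.4% upward and 29.2% downward, and 63.4% had no overlap in CPM. Of the 8 genes whose siPOLR3A change was not used to choose them, 6 were called: BSG, SLC16A3 and SLC16A9 rose, and SLC16A6, SLC16A7 and SLC16A10 fell. The same 6 had no overlap. With ML60218 39% passed it, 18.1% upward and 20.9% downward, and 51.9% had no overlap. There 4 of 7 were called, with SLC16A6 and SLC16A7 higher and SLC16A1 and BSG lower, and 3 of 7 had no overlap. The median log2 change of those 8 genes after siPOLR3A was -0.05 and that of the 7 with ML60218 was -0.09, beside 0.01 over all genes tested in each comparison.

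The siPOLR3A effect minus the ML60218 effect was also tested over all 12 libraries, where 50.9% of 15780 genes were called. Of the 6 genes that were not chosen by either effect, 4 were called. SLC16A6 had the largest difference, -2.02 (SE 0.165, edgeR adjusted p = 6.83e-08). SLC16A7 had -0.40 (SE 0.0847, edgeR adjusted p = 0.000906), and BSG had 0.34 (SE 0.0458, edgeR adjusted p = 1.52e-05). These 3 kept their calls in all 14 alternatives, which were RLE scaling, a replicate block and each of the 12 libraries left out. The TPM scale, the isoform length and the SLC16A6P1 reads were not varied for the difference. The difference for SLC16A3 was 0.71 (SE 0.257, edgeR adjusted p = 0.0298). It was lost without siControl replicate 1 or 3 (adjusted p = 0.0565 and 0.0614), siPOLR3A replicate 2 or 3 (0.051 and 0.0739), DMSO replicate 1 (0.0857) or ML60218 replicate 3 (0.0741). SLC16A10 at -0.15 (edgeR adjusted p = 0.0501) was not called, but was called without siPOLR3A replicate 2, DMSO replicate 1, or ML60218 replicate 2 or 3 (adjusted p = 0.0453, 0.0223, 0.0274 and 0.0376). SLC16A13 was at 0.05 (edgeR adjusted p = 0.788). SLC16A1, SLC16A9 and SLC16A14 had untested differences of -1.73, -0.38 and -1.30. The experiments also differed in time and in delivery, so agent and duration cannot be told apart.

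Of the other 6 SLC16 genes, 5 had enough reads to test. After siPOLR3A 3 of them were called lower and 0 higher, beside 29.2% and 27.4% of all genes. SLC16A4 went from 5.95 to 4.39 CPM (log2 change -0.44, edgeR adjusted p = 0.0014). SLC16A12, the creatine carrier, went from 1.11 to 0.408 CPM (-1.44, edgeR adjusted p = 0.000437). SLC16A5 and SLC16A8 stayed under 2 CPM in all libraries and were not called. With ML60218 edgeR called 0 of the 5, beside 39% of all genes tested. The values were 0.17 for SLC16A4, 0.36 for SLC16A5, 0.11 for SLC16A8 and 0.48 for SLC16A12 (edgeR adjusted p = 0.431, 0.397, 0.772 and 0.287). SLC16A11 was not tested, and its highest library was at 0.366 TPM. Summed over all 14 SLC16 genes, the level was 252 ± 4.57 TPM in siControl and 130 ± 4.68 in siPOLR3A, and 271 ± 7.92 in DMSO and 283 ± 8.28 with ML60218 (SD, n = 3). SLC16A1, chosen for its fall, makes up most of the first difference: the 13 genes without it summed to 91.5 ± 2.67 TPM in siControl and 87.6 ± 3.53 in siPOLR3A. They summed to 77.4 ± 3.21 in DMSO and 99.8 ± 5.75 with ML60218. That sum includes SLC16A9 and SLC16A14, chosen for their rises with ML60218. They went from 7.02 to 15.8 TPM and from 5.07 to 11.4 TPM, so the ML60218 difference largely repeats that choice. In TPM the median of all genes also lay 0.117 higher with ML60218 on the log2 scale.

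Among 8 accessory glycoproteins and partners of basigin, 4 were called higher and 2 lower after siPOLR3A, beside 27.4% and 29.2% of all genes. NPTN, the neuroplastin relative of basigin, rose by 0.31, and the cyclophilin PPIB by 0.19, while EMB fell by 0.14 (edgeR adjusted p = 6.98e-06, 5.43e-05 and 0.000231). With ML60218 2 were higher and 3 lower, beside 18.1% and 20.9% of all genes. NPTN fell by 0.41 and PPIB by 0.36 (edgeR adjusted p = 0.000552 and 0.00119), and EMB at -0.09 was not called (edgeR adjusted p = 0.0583). SLC3A2, the CD98 heavy chain found in complexes with basigin, went from 84.8, 81.7 and 82.7 CPM to 124.0, 163.1 and 200.3 CPM (log2 change 0.97, edgeR adjusted p = 0.0191). The 3 treated libraries were spread widely, and the call was lost without DMSO replicate 1, 2 or 3 or ML60218 replicate 2 (adjusted p = 0.0703, 0.0694, 0.0705 and 0.0554). SLC7A5, its amino acid carrier partner, rose by 0.20 (edgeR adjusted p = 0.00176).

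Enzymes that make and use MCT cargo are read against the 27.4% of all genes called higher and 29.2% called lower after siPOLR3A. Of 20 genes of glucose uptake and glycolysis, 12 were called lower and 3 higher, with a median log2 change of -0.14. The lower calls were 9 with upper quartile factors, 8 with total counts, and 7, 7 and 6 in the 3 TPM fits. TPI1, triosephosphate isomerase, went from 699 to 478 CPM (-0.55), and the glucose carrier SLC2A3 from 36.92 to 24.01 CPM (-0.62), while ENO1 rose by 0.10 (edgeR adjusted p = 6.66e-11, 0.0103 and 0.00106). Of 18 lactate and pyruvate enzymes, 9 were called lower and 3 higher, with a median of -0.10. DLAT, a core subunit of pyruvate dehydrogenase, went from 168 to 89.5 CPM (-0.91), and PC, pyruvate carboxylase, from 18.7 to 11.7 CPM (-0.67) (edgeR adjusted p = 4.65e-08 and 3.6e-07). GPT2, the mitochondrial alanine transaminase, rose by 0.26 (edgeR adjusted p = 1.31e-05). LDHA was not analysed here. MPC1 and MPC2, the subunits of the mitochondrial pyruvate carrier, fell by 0.26 and 0.20 (edgeR adjusted p = 0.000121 and 8.33e-05).

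With ML60218 18.1% of all genes were called higher and 20.9% lower. Of the 20 glycolytic genes 9 were called lower and 3 higher, with a median of -0.10, but in the 3 TPM fits 1 was lower and 3 higher, with a median of 0.03. PGAM1, phosphoglycerate mutase, went from 563 to 446 CPM (-0.34), while SLC2A3 went from 13.2 to 20.2 CPM (0.62) and PFKFB2, a regulator of phosphofructokinase, from 36.4 to 49.3 CPM (0.44) (edgeR adjusted p = 0.00163, 0.0003 and 0.000202). Of the lactate and pyruvate enzymes 5 were called higher and 2 lower, with a median of 0.02, and in the TPM fits 7, 7 and 4 were higher and 0 lower. GPT2 went from 46.1 to 66.6 CPM (0.53) and PDP2, a phosphatase that activates pyruvate dehydrogenase, from 70.0 to 84.5 CPM (0.27) (edgeR adjusted p = 6.95e-05 and 0.00279). MPC1 was at -0.24 (edgeR adjusted p = 0.0029), but at -0.11 and not called in the 3 TPM fits (limma adjusted p = 0.111, 0.111 and 0.192). MPC2 at -0.20 (edgeR adjusted p = 0.0142) lost its call without DMSO replicate 2 (adjusted p = 0.0672), with total counts (0.0614) and in the TPM fits (0.199, 0.199 and 0.291).

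Genes that handle the other cargo were called in both directions. Over all genes 27.4% were called higher and 29.2% lower after siPOLR3A, and 18.1% and 20.9% with ML60218. In the ketone body list of 7 genes tested, 3 were lower and 0 higher after siPOLR3A, and 1 was higher and 0 lower with ML60218. AACS, acetoacetyl-CoA synthetase, went from 31.9 to 24.02 CPM after siPOLR3A (-0.41, edgeR adjusted p = 2.68e-06). Of 14 carnitine and creatine genes, 3 were higher and 4 lower after siPOLR3A, and 4 were higher and 3 lower with ML60218, where the TPM fits again called 4 higher but 0 lower. SLC25A20, the mitochondrial carnitine carrier, went from 16.5 to 9.11 CPM after siPOLR3A (-0.85) and CPT1B, a carnitine palmitoyltransferase, from 26.9 to 40.9 CPM (0.61) (edgeR adjusted p = 3.66e-08 and 9.41e-08). With ML60218 SLC22A15 went from 9.19 to 13.6 CPM (0.57) and CPT1A from 46.4 to 56.0 CPM (0.27) (edgeR adjusted p = 0.00131 and 0.000726).

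For thyroid hormone and aromatic amino acids, 2 genes were higher and 2 lower of 7 after siPOLR3A, and 2 were higher and 3 lower of 8 with ML60218, where the TPM fits called 0 lower. The same shares of all genes apply here: 27.4% higher and 29.2% lower after siPOLR3A, 18.1% and 20.9% with ML60218. The thyroid hormone receptor THRB went from 30.0 to 13.3 CPM after siPOLR3A (-1.18, edgeR adjusted p = 2.13e-09) and from 23.7 to 30.0 CPM with ML60218 (0.34, edgeR adjusted p = 0.00131). The amino acid carrier SLC43A1 rose in both, by 0.20 and 0.51 (edgeR adjusted p = 0.00788 and 0.000741). Of 7 acid-base genes, 3 were higher and 1 lower after siPOLR3A, and 0 were higher and 4 lower with ML60218. With ML60218 the acid-base genes gave 1 higher and 1 lower call with total counts and in the 2 filtered TPM fits, and 0 of either in the unfiltered one. CA2, a carbonic anhydrase, went from 71.3 to 82.2 CPM after siPOLR3A (0.20, edgeR adjusted p = 6.95e-05).

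The genes whose pattern was most like that of the 3 genes used for the choice were ranked by Pearson's r of log2 CPM over the 12 libraries, after the mean of each experiment was subtracted, among 10335 protein-coding genes. Libraries of a group share their treatment, so r mostly repeats the group means. For SLC16A1 the nearest were UBQLN4 (r = 0.999), FUCA2 (r = 0.999) and NFE2L1 (r = 0.999). Their log2 changes were -1.36, -1.28 and -1.53 after siPOLR3A and -0.16, -0.17 and -0.18 with ML60218. For SLC16A9 they were LGR5 (r = 0.984), GPT2 (r = 0.984) and GPCPD1 (r = 0.984), with changes of 0.38, 0.26 and 0.61 after siPOLR3A and 0.53, 0.53 and 1.36 with ML60218. For SLC16A14 they were POLI (r = 0.981), LRRC8D (r = 0.977) and ZNF627 (r = 0.976), with changes of -0.07, -0.20 and -0.18 after siPOLR3A and 0.59, 1.48 and 1.16 with ML60218.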

How the data were processed

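Per the file headers, the deposited table gives an estimated count and a TPM value for each of 194142 Ensembl transcripts in 12 libraries, in the columns that salmon writes; its settings, version and transcript release are not given in the sources used here. Per the submitters' processing notes, bcl2fastq 2.20, Trim Galore, DESeq2 and the build hg38 were used, and per the labels' protocols the libraries were stranded mRNA libraries.

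The deposited estimated counts were summed per gene through the stable identifiers of GENCODE release 29 (158359 transcripts, 34318 genes) and rounded; the design had assumed counts per gene. Unmatched transcripts, between 8.37% and 8.97% of reads, were left out. edgeR 4.0.16 (R 4.3.3) was run on the 6 libraries of a comparison with filterByExpr (minimum count 10, minimum total 15), TMM factors and the robust quasi-likelihood test, two-sided. Benjamini-Hochberg adjustment covered all genes tested, and called means an adjusted p under 0.05. The SE is the log2 change divided by the square root of F. The difference of effects was fitted over 12 libraries. With 3 libraries in each group, an exact permutation test of 1 gene cannot give a p below 0.1. The TPM values deposited by the authors were summed per gene for levels, and tested only as an alternative (limma 3.58.1, log2 of TPM plus 1 or 0.1, mean of at least 1 TPM). The steps were tested on simulated data.

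The genes and 10 gene lists were chosen with earlier results of these data known, so the lists are no independent evidence. From each list the rule named at most 2 called rises and 2 called falls in a comparison, the largest among genes averaging log2 CPM 3 or more whose groups did not overlap, and 3 nearest genes for SLC16A1, SLC16A9 and SLC16A14; some of those are not reported here. SLC16A4 and SLC16A12 fall outside that rule and were named after their values were seen. The 3′ UTRs came from release 29 and the promoters from RefSeq. LDHA, SLC16A1-AS1, SLC16A12-AS1 and protein sequences were not analysed here. Alternatives changed the scaling (RLE, upper quartile, total counts), the filter, the tool (DESeq2 1.42.0, limma), the isoform length, the transcript map, the fit and each library in turn. For the difference of effects only RLE scaling, a replicate block and each library left out were run.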

Additional observations from a re-analysis of the deposited data

How the results depend on the processing

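Of 464 recomputed values of the 9 genes, 401 kept their direction and their side of the threshold (or, where untested, moved by less than the SD), 46 lost a call, 6 gained one, 8 untested values moved further and 3 reversed. The 3 that reversed were BSG with ML60218 on the TPM scale, at 0.0495 (TPM plus 1), 0.0496 (plus 0.1) and 0.0495 (no filter). Of the 8 genes after siPOLR3A, 3, 3 and 3 were called in those 3 fits (main analysis 6). Over all genes those fits called 6611 and 6583 of 13389 and 5895 of 23635. Of the 7 genes with ML60218, 1, 1 and 1 were called there, beside 4057 and 4060 of 13298 and 2258 of 23423 genes. With an offset for isoform length 2 of the 7 were called, beside 4656 of 15461 genes. Without 1 library it was between 2 and 4 of the 7 (main analysis 4). Leaving out 1 library at a time left 4159 to 6501 genes called with ML60218 and 7998 to 8361 after siPOLR3A. Without a filter the TPM fit called 2258 genes with ML60218, against 6029 by edgeR. SLC16A3, under 1 TPM on average, was left out of the 2 filtered TPM fits, so those held 8 of the 9 genes. Among 1007 recomputed values of other named genes, 921 stayed, 79 lost a call and 7 reversed: SLC4A2 after siPOLR3A, at -0.09 in the main analysis, was at 0.0355, 0.0360 and 0.0355 in the TPM fits and 0.0171 with the isoform offset, and LDHB with ML60218, at -0.11, was at 0.0262, 0.0263 and 0.0262. The cause of these changes was not tested.

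The share of calls that were higher with ML60218 was 46.4%, and 58.6% with upper quartile factors, 67% with total counts, and 81.8%, 81.9% and 78.4% in the TPM fits. After siPOLR3A it was 48.4%, and 58.7% and 57% with upper quartile factors and total counts. The added analysis, chosen after seeing the data, put the SLC16A6P1 reads into SLC16A6, whose change with ML60218 was then 1.65.

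A replicate block gave 8493 calls after siPOLR3A, 5393 with ML60218 and 7658 for the difference. The replicate numbers did not pair the libraries: same-numbered deviations correlated between -0.0741 and 0.0656, and only replicate 2 matched its own number best. With the replicate block SLC16A10 was also called for the difference (adjusted p = 0.0378), and no other call of the 9 genes changed. With ML60218 the replicate block ended the calls of SLC3A2, PDK2 and LDHB (adjusted p = 0.0536, 0.0757 and 0.0774). Depth limits SLC16A3, on 34.1 to 62.4 reads, SLC16A5, SLC16A8 and SLC16A12.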
